A study of Bos grunniens with 36 samples.

Results

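The mammary gland of the yak (Bos grunniens) was compared between day +1, just after calving, and day -30, in late pregnancy. The comparison used 8 of the 36 arrays of a course of 9 days in 4 female yaks: the 4 columns of the deposited table whose sample names give day +1 and the 4 that give day -30, paired by the number of the yak. The animals carried no treatment, and their age is not given in the labels. Each sample was gland tissue cut free of fat and connective tissue at an open biopsy, taken by turns from the left and the right rear gland, and which side was taken on which day is not recorded. Its RNA was put on 1 single-colour array of a cattle design, so a value rests on how well yak RNA binds a cattle probe. A level is the log2 of the signal with the 75th percentile of the array set to 0, and a change is day +1 minus day -30 on that scale, with its standard error (SE). Levels of different genes were not compared, since probes differ in how they bind.

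The deposit assigns these arrays to days in 2 ways that do not match. Every column of the table holds the values of a single scanner file, and for 0 of the 36 columns is it the file deposited with that sample. By the scanner files' record, 3 of the 4 arrays named day +1 here belong to day -15 (yaks 2, 3 and 4) and the fourth, yak 4's, to day +1 of yak 1. 3 of the 4 named day -30 belong to day +240 and the fourth to day -30. The same comparison by that record therefore rests mostly on other arrays. Its day +1 arrays are those named here day +15 of yaks 1, 2 and 3 and day +1 of yak 4. Its day -30 arrays are those named here day -15 of yaks 1, 2 and 3 and day -30 of yak 4. Which record is right was not tested. All values below follow the table's sample names, and values by the other record are given for the totals and for the groups of genes described. In the table's record each day lies on 1 slide of its own, so that day and slide cannot be told apart. The day -30 arrays were bright, with a 75th percentile between 4854.0 and 5751.9 intensity units, and the day +1 arrays reached 3795.2, 5354.5, 4362.0 and 2084.5 units in yaks 1 to 4. The dimmest of the 8, day +1 of yak 4, also stood apart in its values, and calls of named genes that were lost without it are pointed out. Spots well above background made up 84.5% to 89.3% of each day -30 array and 78.3% to 86.0% of each day +1 array, and 0 spots were saturated.

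In late pregnancy the gland finishes building its alveoli, the sacs of secretory epithelium, under progesterone, prolactin and placental hormones. Around calving progesterone falls, the junctions between the cells close and copious secretion of milk begins, with fat, lactose, caseins and defence proteins made by the same cells. Colostrum, the first milk, is rich in antibodies and antimicrobial proteins.

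The array reports each transcript through a probe of 60 bases. The probes of 5 genes that fell are shown because together they stand for 3 themes of the results. These are the R-spondin and Wnt modulators (RSPO1, WIF1), the progesterone-induced ligand TNFSF11, and 2 decreases in none of the gene lists (DNALI1, CHRDL2). The last 2 are among the 12 largest decreases of genes with a symbol in the yak gene table. Positions are those the scanner files give on the cattle assembly UMD 3.1. The span on the genome is longer than the probe for RSPO1, WIF1, DNALI1 and CHRDL2, so these probes bridge an intron.
RSPO1 (second probe, chr3:108870852-108872918, plus strand): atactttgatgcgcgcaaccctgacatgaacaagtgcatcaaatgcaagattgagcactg
DNALI1 (chr3:108918186-108920147, minus strand): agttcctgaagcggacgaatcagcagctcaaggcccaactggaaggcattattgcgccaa
WIF1 (chr5:48998416-49004307, plus strand): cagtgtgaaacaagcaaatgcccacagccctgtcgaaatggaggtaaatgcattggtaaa
TNFSF11 (chr12:12782415-12782474, plus strand): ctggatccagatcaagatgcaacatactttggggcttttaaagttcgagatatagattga
CHRDL2 (chr15:54794191-54795175, minus strand): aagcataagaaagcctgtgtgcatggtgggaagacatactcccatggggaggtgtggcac

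At day +1, lactoperoxidase, the bacterial sensors CD14 and LBP and the chemokine CXCL2 were higher than at day -30, and genes of DNA replication, the progesterone-linked ligand TNFSF11, the enzyme PNMT and the Wnt modulators RSPO1, WIF1 and DKK1 were lower. Of 20108 genes or unnamed transcripts tested, 1255 (6.24%) differed at an adjusted p under 0.05 (limma, Benjamini-Hochberg), 390 (1.94%) higher and 865 (4.30%) lower. The median change of all genes was -0.06. Of the 1255, 1248 moved the same way in 4 of 4 yaks, and in 1201 the ranges of the 4 arrays of each day did not overlap, against 20.6% of all genes. The 1255 had been called by their change on these same arrays, so that these counts are no independent check. Changes over 4-fold were found for 72 higher and 59 lower genes. The error of this fit is pooled over all 36 arrays, among them later days with a wider spread (median SD per gene 0.58 at day +180, 0.302 at day -30 and 0.309 at day +1). A fit of the 8 arrays alone, with the yak as a block, called 2834 genes (14.1%), 1045 higher (5.20%) and 1789 lower (8.90%). Under the scanner files' record 189 genes (0.940%) passed, 73 of them shared with the 1255 in the same direction, which is 5.82% of the one list and 38.6% of the other. Without the day +1 array of yak 4, 846 genes (4.21%) passed, of which 800 were among the 1255. Leaving out all arrays of 1 yak gave 207 genes without yak 1, 275 without yak 2, 148 without yak 3 and 869 without yak 4. Of the 62 called genes named below, 20, 24, 16 and 45 still passed in these fits.

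**Figure D1:**
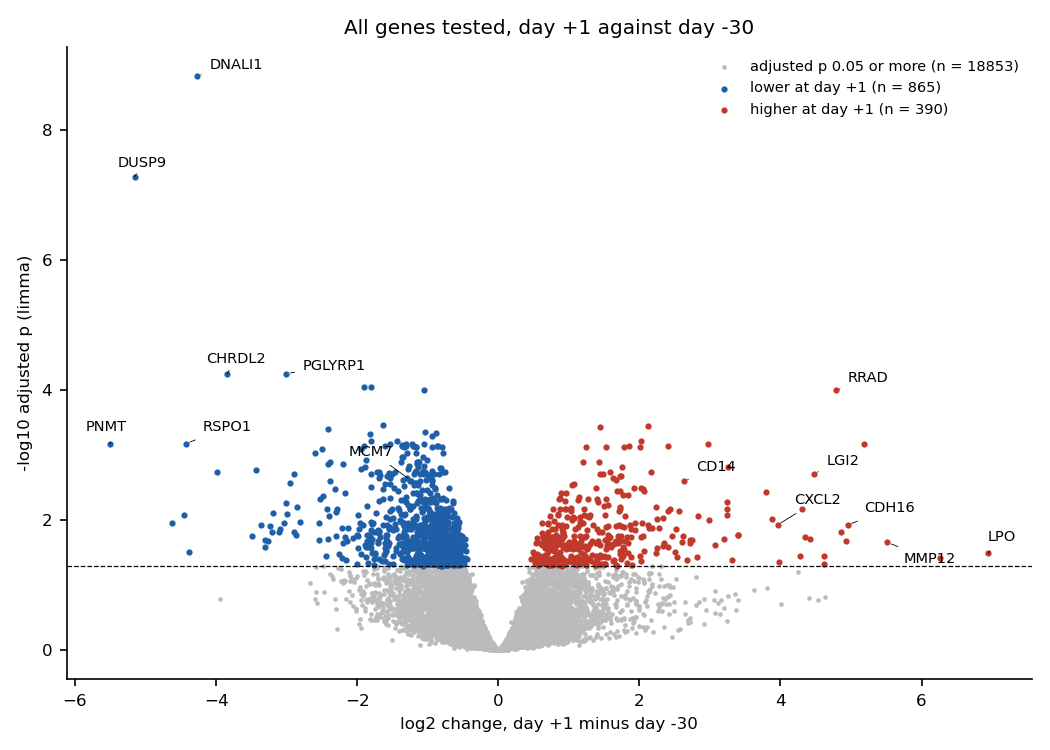
Log2 change (day +1 minus day -30, x axis) against -log10 of the adjusted p (limma, y axis) for each of the 20108 genes tested. Red points are the 390 genes higher and blue points the 865 lower at an adjusted p under 0.05 (dashed line), and DNALI1 and DUSP9, both lower, lie farthest up.

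The largest increase belonged to LPO, lactoperoxidase, an antimicrobial enzyme of milk. Its level was -5.49, -5.36, -4.65 and -6.31 in yaks 1 to 4 at day -30 and 0.78, 0.41, 1.30 and 3.47 at day +1. The ranges lie far apart, and yak 4 is the highest at day +1. The change was 6.94 (SE 1.98, adjusted p = 0.0321), 123-fold, and without the day +1 array of yak 4 it was 6.15 with an adjusted p of 0.0969. RRAD, a small GTPase first known from muscle, lay between -2.93 and -1.61 at day -30 and between 2.28 and 3.06 at day +1. Each yak was higher by over 4 log2 units, and the change of 4.78 (SE 0.66, adjusted p = 0.000101) was 4.83 without that array. A second RRAD probe gave 2.10. MMP12, the elastase of macrophages, rose by 5.51 (SE 1.47, adjusted p = 0.0219), but it was well above background on 1 of 4 arrays at day -30, so that the size rests on 3 values near background. With normexp background correction its change was 2.59 (adjusted p = 0.059), and under the scanner files' record 2.32 (adjusted p = 0.438). CDH16, a cadherin best known from kidney, rose by 4.95 (SE 1.18, adjusted p = 0.0118), and LGI2, a secreted leucine-rich protein, by 4.47 (SE 0.84, adjusted p = 0.00192). SNTN, a protein of ciliary tips, cleared the background on 0 of 4 day -30 arrays and on 3 of 4 day +1 arrays. Its day +1 levels were -4.04, -7.49, -3.66 and -0.72 in yaks 1 to 4. The day +1 mean was at least 9.65-fold higher than the lowest signal well above background on the day -30 arrays (adjusted p = 0.0473). That floor had a mean of -7.25, which yak 2 did not reach. Without the day +1 array of yak 4 the mean was at least 4.55-fold higher, with an adjusted p of 0.162. With normexp background correction the change of SNTN was 2.09 (adjusted p = 0.106).

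The other increases among the 12 largest of genes with a symbol in the yak gene table were smaller. ALOX15 (4.93), CXCL2 (3.96) and LBP (3.19), described below, have no symbol there and were not ranked. Where a gene was dim at 1 of the days, normexp background correction gave a smaller change, 2.88 for LGI2, 1.39 for CNTNAP4, 1.61 for SULT1B1 and, among the decreases below, -2.17 for CHST8. GLDC, which breaks down glycine, rose by 3.24, and SCNN1G, a subunit of the epithelial sodium channel, by 3.07. OLR1, a scavenger receptor for oxidised lipoprotein, rose by 2.98, CNTNAP4, a neuronal adhesion protein, by 2.83, and SULT1B1, a sulfotransferase, by 2.81. SERINC2, named as a serine incorporator, rose by 2.75. Its level lay between -0.75 and 0.54 at day -30 and between 2.39 and 3.05 at day +1, and 4 probes gave 2.70 to 2.98. Adjusted p of these 6 genes lay between 0.00668 and 0.0367. SULT1B1 and SERINC2 did not pass without the day +1 array of yak 4 (adjusted p = 0.126 and 0.054).

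Among genes with a symbol in the yak gene table, the largest decrease was that of PNMT, the enzyme that turns noradrenaline into adrenaline. Its level was 2.91, 1.78, 2.13 and 2.26 at day -30 and -3.44, -3.54, -3.38 and -2.56 at day +1, so that the groups are far apart. The change was -5.50 (SE 0.89, adjusted p = 0.000664), 45.2-fold, and the 3 PNMT probes gave -5.27 to -5.82. DUSP9, a phosphatase of MAP kinases, went from 0.45, -1.92, -1.12 and -1.85 to -6.20, -6.67, -6.68 and -5.50. Here too no day +1 array came near a day -30 array, and the change was -5.15 (SE 0.47, adjusted p = 5.26e-08). DNALI1, a dynein light chain of cilia and flagella, had the smallest p. It stood at 0.14, 1.19, 0.25 and -0.35 at day -30 and at -4.24, -4.42, -2.62 and -4.59 at day +1, a change of -4.27 (SE 0.33, adjusted p = 1.46e-09).

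RSPO1, R-spondin 1, which strengthens Wnt signals and is known from the mouse mammary gland as a factor of its stem cells, fell as well. Its level was 2.49, 2.38, 1.80 and 2.18 at day -30 and -2.90, -2.01, -0.80 and -3.15 at day +1. The change was -4.43 (SE 0.71, adjusted p = 0.000664), and the intron-bridging probe printed above gave -5.05. RSPO1 and DNALI1 lie near each other on cattle chromosome 3, with 43.3 kb between the probes that stand for them, and the yak gene table has 1 protein-coding gene, GNL2, lying between them. GNL2, a nucleolar GTPase named here after its value was seen, did not pass, with a difference of -0.46 (SE 0.19, adjusted p = 0.156). Under the scanner files' record, which draws mostly on other arrays, RSPO1 and DNALI1 passed with changes of -6.04 and -5.00 (adjusted p = 0.00927 and 0.00817).

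2 more of the decreases belong to the TGF-beta and bone morphogenetic protein system. GDF10, a ligand of the TGF-beta family, lay between 0.11 and 0.74 at day -30 and between -4.81 and -2.56 at day +1, a change of -3.98 (SE 0.74, adjusted p = 0.00179). A second GDF10 probe gave a change of -2.56. CHRDL2, a secreted binder of bone morphogenetic proteins, went from 1.08, -0.31, 1.09 and -0.10 to -3.78, -4.25, -2.90 and -2.69, a change of -3.84 (SE 0.49, adjusted p = 5.57e-05). CHST8, a sulfotransferase acting on the sugars of glycoprotein hormones, changed by -4.62 and was well above background in 2 of 4 yaks at day +1. SERPINA11, a serpin, changed by -4.46 and A2ML1, a protease inhibitor, by -3.23. CXCL13, the chemokine that draws B cells, changed by -4.39 (SE 1.24, adjusted p = 0.0305). Its day +1 levels ran from -8.21 in yak 1 to -3.37 in yak 4. DRD1, a dopamine receptor, changed by -3.43 with little spread between yaks (SD 0.30 at day -30 and 0.22 at day +1, n = 4). TRIM9, a ubiquitin ligase known from brain, changed by -3.31. All 24 of these largest changes passed in the fit of the 8 arrays. They had been ranked by their change on these arrays, so that this count is no independent check. Without the day +1 array of yak 4, 20 passed. Under the scanner files' record 8 passed, and the sign was the same for 24 of 24.

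**Figure D2:**
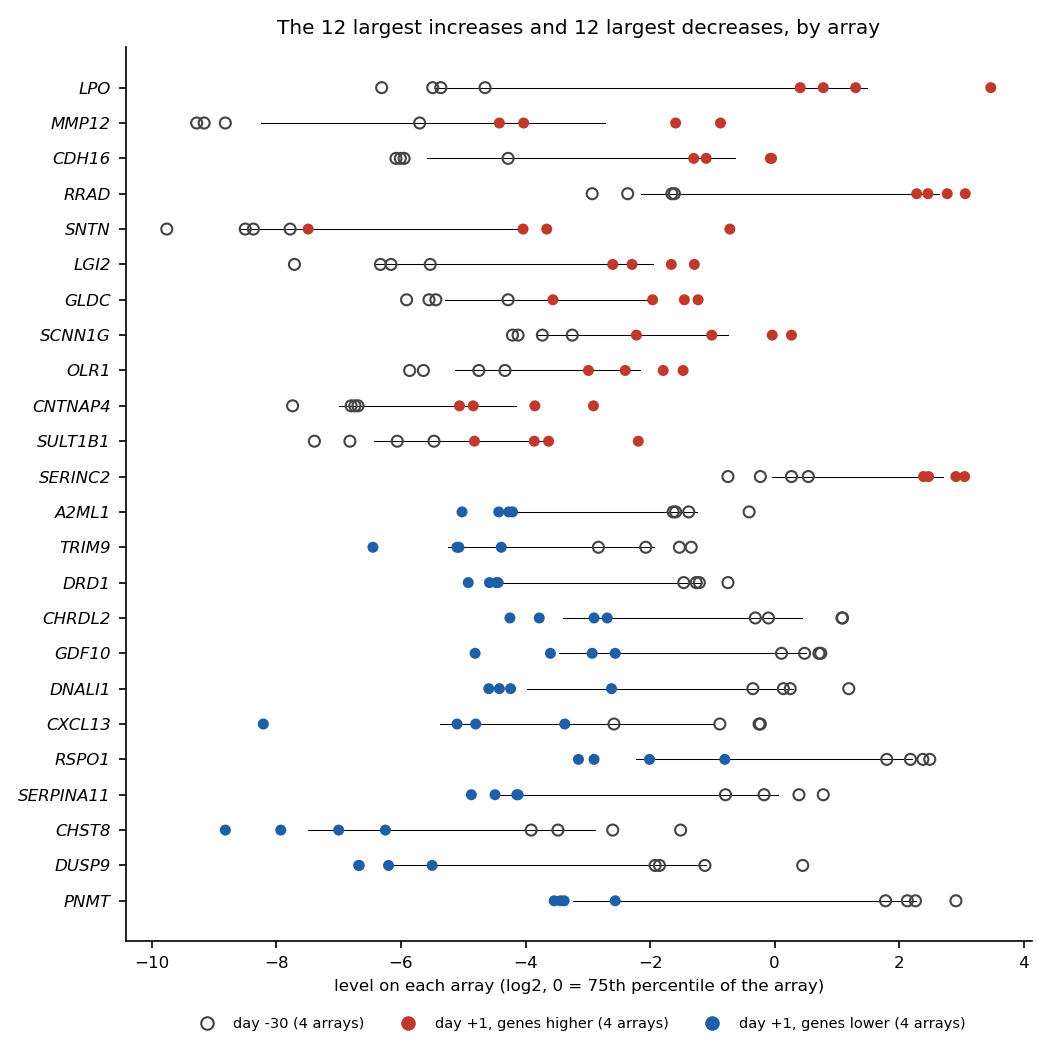
Levels (log2, 0 is the 75th percentile of the array) of the 12 genes with the largest increase and the 12 with the largest decrease, 1 row a gene. Only genes with a symbol in the yak gene table were ranked. Open circles are the 4 arrays of day -30, filled circles the 4 of day +1 (red for genes higher, blue for genes lower), and a line joins the means. The ranges do not overlap in any of the 24, which were chosen by their change on these arrays. LPO and PNMT show the widest gaps in each direction.

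The major milk proteins were all well above background at day -30. Of 6 genes, 0 passed in either direction (limma, adjusted p between 0.239 and 0.899), and their median change was 1.13, against -0.06 over all genes. The median was 0.80 without the day +1 array of yak 4, 2.84 under the scanner files' record, where 0 passed too, and -0.10 with array brightness as a covariate. CSN1S2, alpha-S2-casein, stood at 2.91, 1.17, 4.14 and 2.58 at day -30 and at 5.70, 4.75, 5.42 and 6.70 at day +1. The groups do not overlap, and the difference was 2.95 (SE 1.45, adjusted p = 0.239). LALBA, alpha-lactalbumin, the regulatory part of lactose synthase, stood at 3.68, -0.31, 3.62 and 3.08 and then at 5.33, 4.40, 5.39 and 6.59, a difference of 2.91 (SE 1.90, adjusted p = 0.40). CSN1S1, alpha-S1-casein, differed by 1.39. In the fit of the 8 arrays, where 5.20% of all genes rose, these 3 passed, with adjusted p of 0.00778, 0.0124 and 0.0223. CSN3, kappa-casein, differed by 0.86, CSN2, beta-casein, by 0.71 and PAEP, beta-lactoglobulin, by 0.34, and these 3 did not pass in that fit either (0.132, 0.178 and 0.540). PAEP was lower at day +1 in yaks 2 and 3, and without the day +1 array of yak 4 its difference was -0.04. Within the yaks the median difference of the 6 genes was 0.96, 0.72, 0.59 and 2.35 in yaks 1 to 4.

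Of 18 host defence proteins of milk, 2 rose (LPO and CD14) and 1 fell (PGLYRP1), and the median change was 1.07. Of all genes 1.94% rose and 4.30% fell. In the fit of the 8 arrays 10 rose and 1 fell, where 5.20% and 8.90% of all genes did. Under the scanner files' record, where 0.940% of all genes passed, 3 rose and 0 fell. CD14, the co-receptor for bacterial lipopolysaccharide that is also shed into milk, went from -0.13, -0.39, 0.15 and -0.19 to 2.35, 1.77, 2.35 and 3.49. The day -30 values lie close together and every day +1 value is above them. The change was 2.63 (SE 0.51, adjusted p = 0.00251), and its other probes gave 3.02 and 3.54. PGLYRP1, a peptidoglycan-binding protein stored in neutrophils and known from camel milk, went the other way, from 1.32, 0.76, 1.22 and 0.67 to -2.10, -2.32, -1.62 and -2.03, a change of -3.01 (SE 0.39, adjusted p = 5.57e-05, and 0.0571 under the scanner files' record). LTF, lactoferrin, which binds iron, did not pass, with a difference of 1.17 (SE 0.84, adjusted p = 0.449), although its groups do not overlap.

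The genes of antibody transfer into milk showed 1 increase among 7 tested, where 1.94% of all genes rose. CCL28, the chemokine that brings antibody-producing cells to the mammary gland, lay between -0.29 and 0.58 at day -30 and between 1.28 and 2.40 at day +1, and rose by 1.77 (SE 0.36, adjusted p = 0.00414, and 0.037 under the scanner files' record). The markers of B and plasma cells themselves had a median change of -0.82, and 0 of 8 passed. In the fit of the 8 arrays 5 of these 8 were lower, where 8.90% of all genes were. Their summed linear level ran from 19.0 to 21.9 on the day -30 arrays and from 16.0 to 19.8 on the day +1 arrays. The tissue is bulk, so fewer cells of a type and less RNA per cell cannot be told apart, here and for every other list.

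Of 17 acute phase and inflammatory genes 3 rose, where 1.94% of all genes did. CXCL2, which draws neutrophils, stood at -3.78, -3.54, -3.81 and -3.68 at day -30 and at 0.74, -0.31, -0.43 and 1.02 at day +1, a change of 3.96 (SE 0.94, adjusted p = 0.0118, and 0.066 under the scanner files' record). LBP, which carries lipopolysaccharide to CD14, went from 0.76, -0.42, -0.03 and -1.09 to 3.50, 2.87, 3.09 and 2.53. Unlike CD14, it was lowest in yak 4 at both days. The change was 3.19 (SE 0.83, adjusted p = 0.0194), and 5 probes gave 3.19 to 4.29. TLR4, the receptor of the same pathway, rose by 0.95 (SE 0.20, adjusted p = 0.00498). CD14, LBP and TLR4 thus all rose, and all 3 passed without the day +1 array of yak 4, while under the scanner files' record only CD14 of them passed (adjusted p = 0.0165, 0.119 for LBP and 0.264 for TLR4).

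Neutrophil markers are given beside these genes. Of 9 tested, 0 rose and 1 (PGLYRP1) fell, where 1.94% and 4.30% of all genes did, and the median change was 0.70. In the fit of the 8 arrays 4 rose and 1 fell, where 5.20% and 8.90% of all genes did. The summed linear level of the list ran from 3.12 to 4.28 at day -30 and from 3.38 to 13.6 at day +1. S100A8, a calcium-binding protein of neutrophils that epithelia also make, stood at -3.96, -4.19, -3.89 and -4.29 at day -30 and at -0.50, -1.55, -1.31 and -3.27 at day +1. It did not pass, with a difference of 2.42 (SE 1.11, adjusted p = 0.197). Its partner S100A9 differed by 2.34 (adjusted p = 0.154) and was lowest in yak 4 at both days. The part of neutrophils in the increase of CXCL2, CD14 and LBP was not tested. Markers of macrophages had a median change of 0.06, and 0 of 8 passed.

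2 of 12 lipoxygenase and prostaglandin enzymes rose, where 1.94% of all genes did. ALOX15, a lipoxygenase of arachidonic and linoleic acid, stood at -4.49, -4.29, -3.04 and -4.73 at day -30 and at 0.27, -0.94, 0.63 and 3.22 at day +1. The change was 4.93 (SE 1.30, adjusted p = 0.0208), yak 4 was the highest at day +1, and without that array the change was 4.10 with an adjusted p of 0.0838. ALOX15 passed under the scanner files' record (adjusted p = 0.024). AKR1C3, an aldo-keto reductase that makes prostaglandin F, rose by 1.69 (SE 0.45, adjusted p = 0.0223, and 0.217 under that record). Its 2 other probes gave 0.49 and 0.02, and the family holds close copies, so which transcript rose is uncertain.

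**Figure D3:**
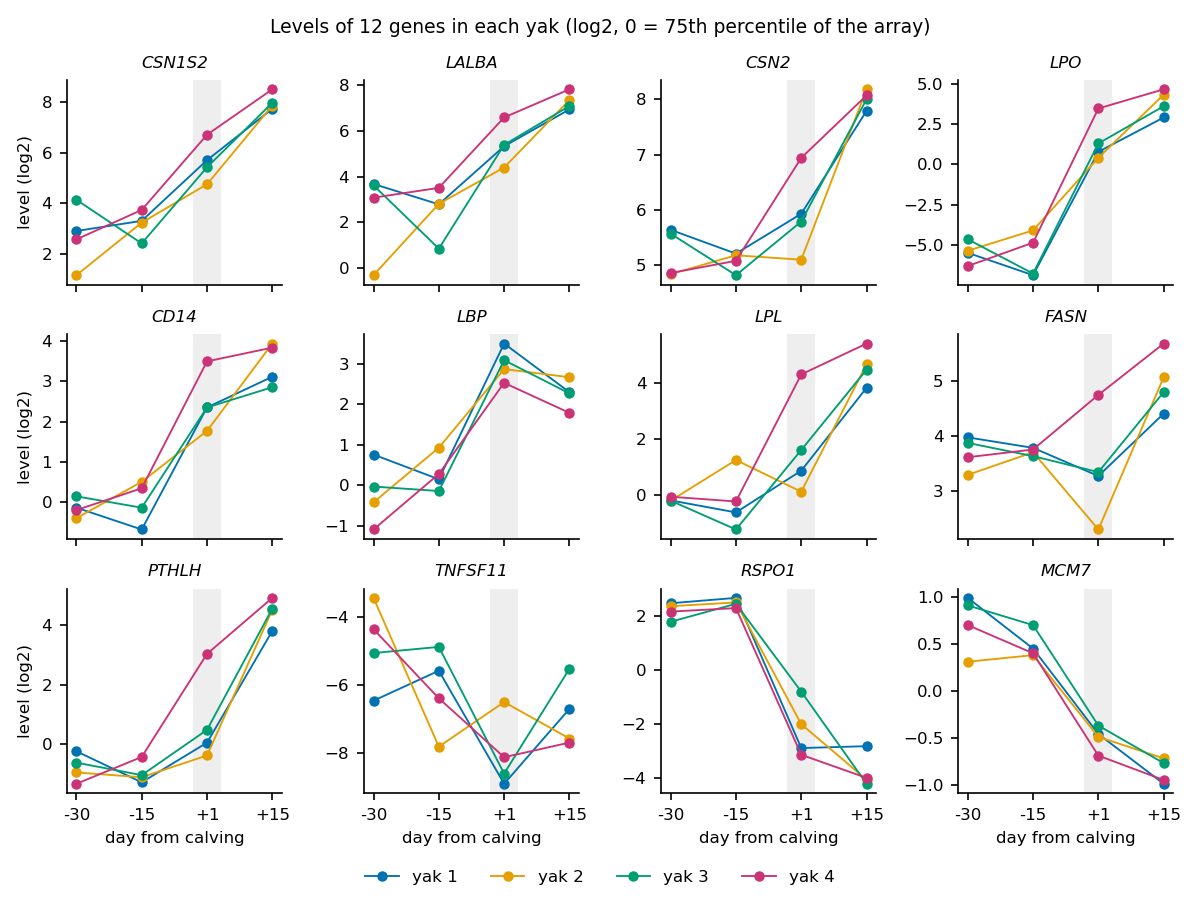
Levels (log2, 0 is the 75th percentile of the array, y axes differ) of 12 genes on the arrays named day -30, -15, +1 and +15 (x axis), with 1 line a yak and day +1 shaded. Yak 4 lies above the other yaks at day +1 for CSN1S2, LALBA, CSN2, LPO, CD14, LPL, FASN and PTHLH. RSPO1 and MCM7 are lower at day +1 than at day -30 in all 4 yaks.

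Milk fat synthesis and secretion are covered by 4 lists, in which 3 of 57 genes (5.26%) passed, near the 6.24% of all genes. In the fit of the 8 arrays more passed, where 5.20% of all genes rose and 8.90% fell. There 6 genes of fatty acid uptake and activation rose and 1 fell, and 3 of fatty acid synthesis and desaturation rose and 2 fell. Of triacylglycerol synthesis 2 rose and 0 fell in that fit, and of milk fat globule secretion 2 rose and 0 fell. Of 18 genes of fatty acid uptake and activation 1 rose, ACSS1, which activates acetate in mitochondria, by 1.55 (SE 0.42, adjusted p = 0.0249). Of 14 genes of fatty acid synthesis and desaturation 1 rose and 1 fell. FADS1, the delta-5 desaturase, rose by 1.28 (adjusted p = 0.0389), with 0.16 on its second probe. ACLY, which makes acetyl-CoA from citrate, a minor route in ruminants, fell by 0.86 (SE 0.24, adjusted p = 0.0293), from levels between 0.79 and 1.12 to levels between -0.12 and 0.29. Its other probes gave -0.85, -0.65 and -0.35. None of ACSS1, FADS1 and ACLY passed without the day +1 array of yak 4 (adjusted p = 0.0919, 0.0938 and 0.0836), and under the scanner files' record ACSS1 alone did. Of 12 genes of triacylglycerol synthesis and 13 of milk fat globule secretion 0 passed in either direction, with median changes of 0.36 and 0.67. BTN1A1 and XDH, the coat proteins of the fat globule, differed by 1.14 (SE 2.22, adjusted p = 0.820) and 0.77 (SE 0.65, adjusted p = 0.544).

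For several of these genes yak 4 moved most. FASN, fatty acid synthase, was at 3.97, 3.29, 3.87 and 3.61 at day -30 and at 3.27, 2.30, 3.34 and 4.74 at day +1, so that it was lower in yaks 1 to 3 and higher in yak 4. LPL, which frees fatty acids from plasma lipoproteins, was between -0.19 and -0.05 at day -30 and at 0.88, 0.13, 1.62 and 4.32 at day +1. Its day +15 levels were 3.84, 4.68, 4.49 and 5.42, so that the day +1 value of yak 4 lay within the range of the day +15 arrays and those of the other yaks below it. SCD, the stearoyl-CoA desaturase, showed 2.97, 1.80, 3.25 and 2.62 and then 2.97, 2.40, 3.39 and 5.04. None of the 3 passed, with differences of -0.28 (adjusted p = 0.865), 1.89 (0.460) and 0.79 (0.708). FABP3, which binds fatty acids in the cell, differed by 1.79 (adjusted p = 0.481) and was higher in all 4 yaks.

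The list medians show the same array. The median difference of milk fat globule genes was 0.32, 0.38 and 0.35 in yaks 1 to 3 and 1.48 in yak 4. For fatty acid synthesis it was -0.12, 0.02 and -0.17 against 0.72, for translocation and vesicle coats 0.08, -0.09 and 0.17 against 0.75, and for 49 cytosolic ribosomal proteins -0.05, -0.58 and 0.05 against 0.94. In contrast, the median differences of the MCM replication genes (-1.43, -1.40, -1.67 and -1.64) and of the myoepithelial markers (1.07, 0.60, 1.00 and 1.12) were alike in the 4 yaks. These differences between yaks have no replicate and were not tested. They go with the lowest brightness of the 8 arrays, and with the one day +1 column that both records place at day +1.

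**Figure D4:**
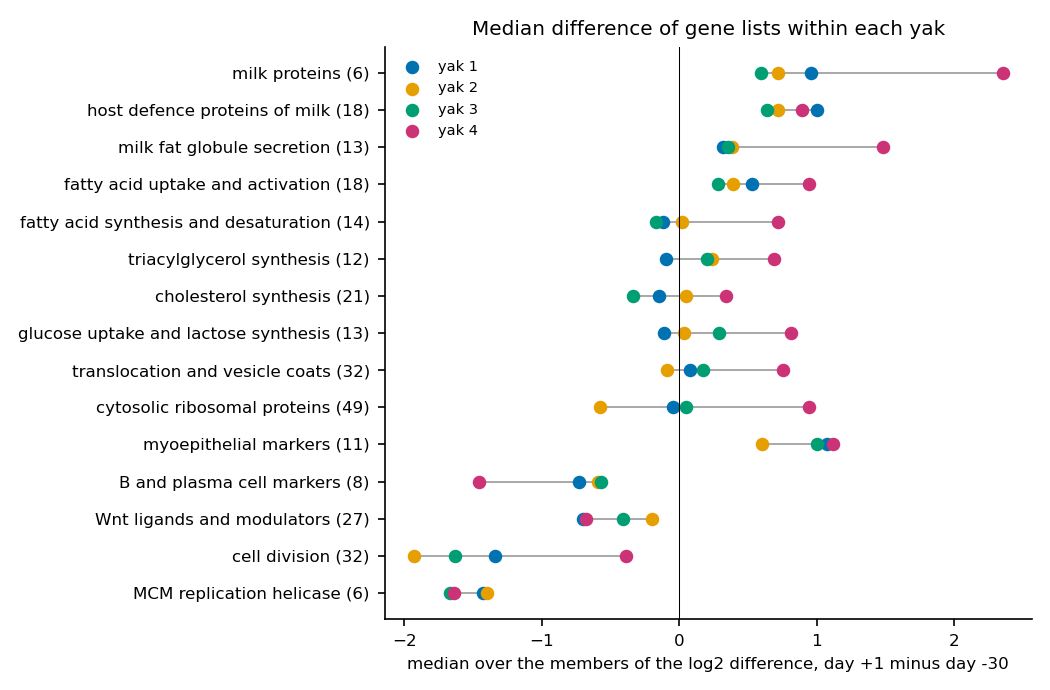
Median over the members of the log2 difference between day +1 and day -30 (x axis) within each of the 4 yaks (coloured points), for 15 gene lists with the number of genes tested in brackets. Yak 4 lies to the right of the others for milk proteins (2.35), milk fat globule genes (1.48) and ribosomal proteins (0.94), and the 4 yaks lie close together for the MCM list.

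Of 13 lipogenic regulators 2 rose, where 1.94% of all genes did. PPARGC1A, a coactivator of nuclear receptors that drives mitochondrial genes, was between -5.26 and -3.51 at day -30 and between -2.55 and -1.84 at day +1, a change of 2.40 (SE 0.53, adjusted p = 0.00728), with 2.39 and 2.19 on its other probes. INSIG2, which holds the sterol sensor in the endoplasmic reticulum, rose by 0.92 (SE 0.23, adjusted p = 0.0155). Under the scanner files' record PPARGC1A passed (adjusted p = 0.0408) and INSIG2 did not (0.123).

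Glucose uptake, lactose synthesis and calcium transport had 0 calls among 13 and 15 genes, with median changes of 0.46 and 0.57. SLC2A1, the main glucose transporter of the mammary epithelium, stood at 0.99, 0.44, 0.87 and -0.05 at day -30 and at 0.73, 0.46, 1.00 and 2.26 at day +1. Yaks 1 to 3 hardly moved, and the difference was 0.55 (SE 0.52, adjusted p = 0.596), or 0.14 without the day +1 array of yak 4. PTHLH, parathyroid hormone-like hormone, through which the lactating gland draws calcium from bone, stood at -0.24, -0.95, -0.62 and -1.33 and then at 0.05, -0.38, 0.48 and 3.03. The difference of 1.58 (SE 0.91, adjusted p = 0.328) was 0.81 without that array. ATP2B2, the pump that moves calcium into milk, differed by 2.39 (SE 0.88, adjusted p = 0.0991) and was higher in 4 of 4 yaks. PTHLH and ATP2B2 passed under the scanner files' record, with changes of 5.16 and 5.26 (adjusted p = 0.0154 for each).

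Among 21 hormone receptors and members of STAT5 signalling 1 rose and 1 fell, where 1.94% and 4.30% of all genes did. TNFSF11 (RANKL), the ligand through which progesterone drives the growth of mouse mammary alveoli, was at -6.46, -3.44, -5.06 and -4.36 at day -30 and at -8.90, -6.50, -8.60 and -8.12 at day +1. It was lower in each yak, and well above background on 4 of 4 arrays before and on 1 of 4 after. The fitted change was -3.20 (SE 0.71, adjusted p = 0.00779). Its size rests on 3 day +1 values near background, and with normexp background correction it was -1.21 (adjusted p = 0.011). PGR, the progesterone receptor, moved the other way, from levels between -2.09 and -1.67 to levels between -0.75 and -0.34. It rose by 1.38 (SE 0.40, adjusted p = 0.0360), and its 3 probes gave 1.38 to 1.62, but it did not pass without the day +1 array of yak 4 (adjusted p = 0.0853). PRLR, the prolactin receptor, stood at -0.64, -1.11, -0.81 and -0.66 and then at 0.61, 0.59, 0.78 and 0.30. It narrowly missed the threshold, with a difference of 1.37 (SE 0.44, adjusted p = 0.0547). Under the scanner files' record the differences were -1.32 for TNFSF11, 0.83 for PGR and 0.03 for PRLR, and none of the 3 passed (adjusted p = 0.385, 0.275 and 0.973).

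Of 27 Wnt ligands and modulators 0 rose and 4 fell, RSPO1 and 3 more, where 4.30% of all genes fell. The median change of the list was -0.30. WIF1, a secreted inhibitor that binds Wnt ligands, was at -2.29, 1.73, -2.85 and -0.22 at day -30 and at -3.98, -3.92, -4.15 and -3.00 at day +1. The day -30 values were spread over more than 4 log2 units, and each yak was lower at day +1, with a change of -2.85 (SE 0.62, adjusted p = 0.00615). DKK1, an inhibitor of the Wnt co-receptor, fell by 2.25 (SE 0.65, adjusted p = 0.0335), with -2.58 and -2.31 on its other probes. AXIN2, a common target and brake of the pathway, went from levels between -2.55 and -2.06 to levels between -4.11 and -3.36, a change of -1.51 (SE 0.29, adjusted p = 0.00194). The 4 genes thus hold an activator, 2 inhibitors and a target. DKK1 did not pass without the day +1 array of yak 4 (adjusted p = 0.104), and RSPO1 alone passed under the scanner files' record. In the fit of the 8 arrays 1 gene of the list rose and 9 fell, where 5.20% and 8.90% of all genes did.

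Of the MCM list, genes that act in DNA replication, 5 of 6 tested fell, where 4.30% of all genes did, and the median change was -1.48. MCM2 and MCM8 of the list were not among the genes tested. MCM7, a subunit of the helicase ring, stood at 0.99, 0.31, 0.91 and 0.70 at day -30 and at -0.46, -0.49, -0.37 and -0.69 at day +1. The 4 arrays of each day lie close together, and the change was -1.23 (SE 0.24, adjusted p = 0.00246). MCM3 and MCM10 each changed by -1.76, MCM6 by -1.61 and MCM4 by -1.36, with adjusted p between 0.0150 and 0.0488. Other probes gave -0.67 for MCM7, -1.71 and -0.69 for MCM3, -2.05 for MCM10 and -1.22 to -1.54 for MCM4. MCM5 differed by -1.10 (SE 0.41, adjusted p = 0.103), with yak 4 nearly unmoved (2.56 and 2.55). Without the day +1 array of yak 4, 3 of the 6 passed, and under the scanner files' record 1, MCM7 (adjusted p = 0.0319).

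Of 32 genes of cell division 0 rose and 6 fell, where 4.30% of all genes fell, and the median change was -1.29. In the fit of the 8 arrays 25 of the 32 fell, where 8.90% of all genes did. CDC20, which releases cells from metaphase, changed by -1.80 (SE 0.50, adjusted p = 0.0268), from 0.86, 0.59, 0.59 and -0.66 to -1.42, -1.95, -1.48 and -0.99. Yak 4 was the lowest at day -30 and the highest at day +1, so its difference was the smallest. BUB1B, of the spindle checkpoint, changed by -1.60, NUSAP1, which binds spindle microtubules, by -1.55, and PLK1, a mitotic kinase, by -1.10. CDC45, a part of the active replication helicase, changed by -1.19 and PCNA, the clamp of the DNA polymerases, by -0.90, with levels between 1.85 and 2.25 at day -30 and between 1.04 and 1.56 at day +1. PLK1 and NUSAP1 did not pass without the day +1 array of yak 4 (adjusted p = 0.056 and 0.0669). The median difference within yaks was -1.34, -1.93, -1.63 and -0.39. Under the scanner files' record 0 of the 32 passed, and the median was -0.76. MYC, a driver of growth listed among the immediate early genes, fell by 1.46 (SE 0.27, adjusted p = 0.00179), with levels between 2.12 and 2.57 before and between 0.41 and 1.10 after, and passed under both records (adjusted p = 0.0177 in the other).

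Among the same 23 immediate early and stress genes, HSPA6, a heat shock protein, fell by 1.13 (adjusted p = 0.0333), while DUSP1, a phosphatase induced by stress and glucocorticoids, rose by 1.18 (adjusted p = 0.0398) and KLF6, a transcription factor, by 1.44 (adjusted p = 0.0342). The list thus had 2 increases and 2 decreases, where 1.94% of all genes rose and 4.30% fell, and a median of 0.19. Without the day +1 array of yak 4 HSPA6 and DUSP1 did not pass (adjusted p = 0.0911 and 0.0973), and under the scanner files' record none of HSPA6, DUSP1 and KLF6 did (0.0557, 0.0616 and 0.292). Lists of the unfolded protein response (22 genes), translocation and vesicle coats (32), tight junctions (18), amino acid transporters (14), interferon response (20), collagens and matrix (23), fatty acid oxidation and ketone bodies (16), cytosolic ribosomal proteins (49) and feedback regulators of lactation (5) had 0 calls in either direction. Their medians lay between -0.17 and 0.48.

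The tissue carried the markers of its cell types at both days. Of 12 luminal epithelial markers all were well above background on at least 1 array of each day, 0 passed, and the median change was 0.39. Of 11 markers of myoepithelial cells, which squeeze milk from the alveoli, 3 rose and 0 fell, with a median of 0.92. Of all genes 1.94% rose. OXTR, the oxytocin receptor, stood at -0.11, -0.15, -0.47 and -0.79 at day -30 and at 1.54, 1.36, 1.56 and 0.60 at day +1, a change of 1.64 (SE 0.44, adjusted p = 0.0228). CNN1, the smooth muscle protein calponin, rose by 1.67 (SE 0.52, adjusted p = 0.0490) and CAV1, caveolin, which endothelium and fat also make, by 0.92 (SE 0.23, adjusted p = 0.0150). Without the day +1 array of yak 4 OXTR alone of the 3 passed (adjusted p = 0.0258), and under the scanner files' record 0 did. The summed linear level of the list ran from 74.2 to 101 at day -30 and from 104 to 197 at day +1, so the arrays of the days do not overlap.

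Of the other cell types, adipocyte markers had a median of -0.43, with PLIN4, a lipid droplet coat protein, lower by 0.64 on the log2 scale (a change of -0.64, SE 0.18, adjusted p = 0.0286) and 9 of 10 without a call. Endothelial markers had a median of 0.51, with PECAM1 higher by 0.73 (SE 0.22, adjusted p = 0.0449, and 0.137 without the day +1 array of yak 4). Under the scanner files' record 0 of the adipocyte and 0 of the endothelial markers passed. Of 10 fibroblast, 10 T cell and 6 red blood cell markers 0 passed, with medians of 0.21, -0.54 and -0.03. The summed level of the T cell markers ran from 9.85 to 13.4 at day -30 and from 5.40 to 9.49 at day +1. The part of these cell types in the changes of the other lists was not tested.

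**Figure D5:**
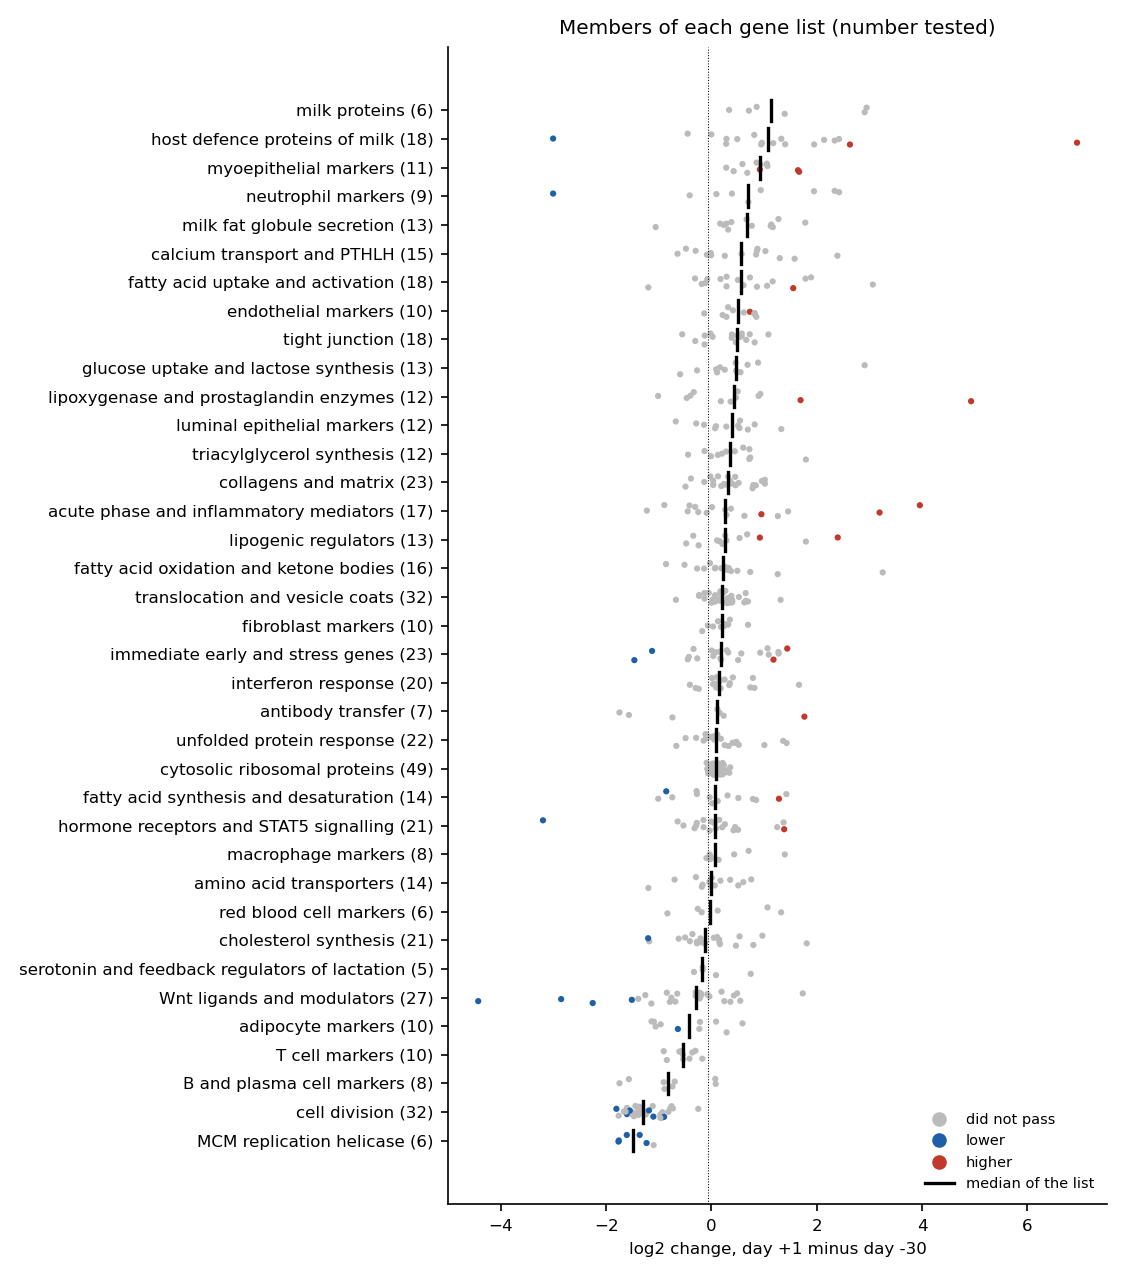
Log2 change (day +1 minus day -30, x axis) of every tested member of 37 gene lists, with the number tested in brackets, ordered by the median (black bars). Red and blue points passed at an adjusted p under 0.05, grey points did not, and the dotted line is the median of all genes, -0.06. The MCM list (-1.48) and cell division (-1.29) have the lowest medians and milk proteins (1.13) the highest, which was 0.80 and below host defence proteins (0.91) without the day +1 array of yak 4.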

How the data were processed

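Total RNA of the biopsies was labelled with Cy3 and put on cattle arrays. Per the file headers the authors scanned them with Feature Extraction 10.7.3.1, which gave for each spot a processed signal intensity and marks of another kind, 0 or 1, deposited with it. The authors also deposited a table in log2 units. Per the labels it was normalized in GeneSpring 12 and tested in JMP Genomics 7 by a mixed model, with day as the fixed and yak as the random term. It holds 34997 of 43653 probes. Each of its 36 columns equals the log2 processed signal of 1 scanner file less a constant (SD of the difference at most 0.001984, next best file at least 0.3852), within 0.004 of that file's 75th percentile. The marks were taken from that file.

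Day was fitted to all 36 columns in R 4.3.3 with the packages limma 3.58.1, statmod 1.5.0 and data.table (version 1.17.8), yak as a random block (consensus correlation 0.0531), two-sided, with Benjamini-Hochberg adjustment over 20108 genes. Probes well above background on at least 3 of 4 arrays of at least 1 day were kept, and 1 probe stood for each gene, that with the highest mean. Of the genes, 13424 had a symbol, 11573 of them also in the table of yak genes. Deviations from the day means at day -30 and day +1 correlated within the same yak at 0.142, 0.422, 0.404 and 0.137. Between different yaks they correlated at -0.304 to 0.144, so that the values of yaks 1 and 4 do not stand clear of other pairs. The labels give 1 animal a number. That animal also holds the same place on each slide. The code was tested on simulated data.

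The 12 largest changes each way among genes with a symbol in the yak table, called, in the same direction in 4 of 4 yaks and well above background on at least 3 of 4 arrays of the higher day are named, then list members that passed, milk proteins, and at most 4 members a list that did not. The 37 lists, 27 of pathways and 10 of cell types, and the comparison itself were chosen with earlier results of these data known. 1 list member that passed is not reported here. No set was tested. Alternatives are given in the closing section. Tables and plots were made in Python 3.11.15 with numpy 2.4.6, pandas 2.3.3 and matplotlib 3.10.9.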

Additional observations from a re-analysis of the deposited data

Results flagged for a closer look

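In 8 of 240 groups of 4 arrays examined for the genes named, 1 array lay far from the other 3 by Dixon's test, and chance alone gives about 1 in 20. MMP12 at day -30 was -5.70 in yak 2, against a median of -9.16 in the others. CDH16 at day -30 was -4.28 in yak 1, against -6.01. CNTNAP4 at day -30 was -7.74 in yak 4, against a median of -6.74 in the others. MCM6 at day -30 was -0.12 in yak 1, LALBA -0.31 in yak 2 and PAEP 4.59 in yak 4, each below its group (medians 0.63, 3.62 and 5.54). LPL at day -30 was -0.05 in yak 4, against a median of -0.19 in the others, where the whole range is small. PNMT at day +1 was -2.56 in yak 4, against -3.44, and its decrease was larger without that array.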

How the results depend on the processing

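The count of 1255 genes was within 1.5 times under no replicate block (1018), a fixed replicate block (1379), an ordinary linear model (1484), no filter on dim probes (1255), a stricter filter (1209), the mean of all probes (1234), quantile normalization (1843), median centring (979) and normexp (1816). It was 2834 in the 8 arrays alone with the fixed replicate block and 2787 with array brightness as a covariate, and 189 under the scanner files' record, where 57.1% of the calls were higher, against 31.1%. Leaving out 1 yak gave 148 to 869 genes, the lowest without yak 3 and the highest without yak 4 (207 without yak 1, 275 without yak 2). Leaving out the day +1 array of yak 4 gave 846 in the full fit, and leaving out yak 4 gave 2458 in the 8 arrays, both chosen after seeing the data. The cause of these differences was not tested. Fewer arrays enter where a yak is left out.

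Of the 62 called genes named, 62 still passed with brightness as a covariate, 61 in the 8 arrays (PLIN4 at an adjusted p of 0.0503 did not), 55 without the block, 42 without the day +1 array of yak 4, 16 to 45 without 1 yak and 15 under the scanner files' record. None of the 62 changed sign under any of these alternatives. Genes that had not passed changed sign in some. With brightness as a covariate the difference was -0.12 for CSN1S1, -0.87 for CSN2, -0.08 for CSN3, -0.81 for PAEP, -0.38 for SCD, -1.29 for BTN1A1, -0.02 for XDH and -0.05 for SLC2A1. Under the scanner files' record it was 1.07 for FASN. PAEP was at -0.14 without yak 4, in both fits, and at -0.04 without its day +1 array, and SLC2A1 at -0.03 without yak 4 in both fits. Leaving out 1 yak at a time gave -0.14 to 0.59 for PAEP and -0.03 to 0.82 for SLC2A1. With 4 arrays a day, and a dim array at day +1 of yak 4, precision is limited for genes near background.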
